A study of Rattus norvegicus with 12 samples.

Results

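The 39 genes described here belong to the ATF4 stress response: transcription factors, stress effectors that act downstream of them, genes of amino acid synthesis and uptake, secreted factors, and cytosolic tRNA synthetases with a tRNA export receptor. They were listed by name from a table of 30562 genes, by a rule that sets no threshold on measured values, but with earlier results of these data known. Each of the 39 symbols was found at 1 locus, and all 39 reached the mean of 1 TPM required for a test, as did 12263 genes, 40.1% of the table. TPM is the length-scaled share of a gene in the total of its library. The RNA was that of H9c2, an established line derived from embryonic rat heart, and 3 libraries were made for each of 4 groups: controls (Ctrl), methylmalonic acid (MMA, an acid that accumulates when propionate breakdown fails), folic acid (FA, the synthetic folate), and the combination, labelled MMA_FA and written MMA+FA below. No source used here states the doses, the exposure times or the folate in the medium. Nor is it stated that replicates were separate cultures, and p-values here reflect no more than the spread between the samples at hand. The labels call the cells cardiomyocytes, but only 4 of 14 cardiomyocyte markers found in the table reached a mean of 1 TPM (Tnnt2, Atp2a2, Nkx2-5 and Gata4), and Myh6, Myh7, Actc1 and Ryr2 did not. Of 10 skeletal myoblast markers 6 reached it, Myod1 and Myog among them, as did 7 of 11 fibroblast markers, 1 of 9 endothelial and 1 of 7 leukocyte markers. Pax7, Tcf21, Fap, Emcn, Cldn5 and Tyrobp were listed at 0 in every library.

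ATF4 is made when kinases that sense amino acid shortage, unfolded protein, mitochondrial trouble or viral RNA phosphorylate the translation factor eIF2, which slows most protein synthesis but favours translation of the ATF4 mRNA. The ATF4 protein pairs with C/EBP-family partners, binds C/EBP-ATF response elements, and switches on genes that make, import and load amino acids, together with genes that feed back on the response. Much of its control therefore lies in translation, and only RNA was measured here.

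The C/EBP-ATF response element was searched for as TGATGNAA on both strands of the 250 bases before each gene's start, in RefSeq promoters of the rat build GRCr8. The expression values were made on another build, mRatBN7.2, and no coordinate was carried between them. The motif was present in 3.4% of 33469 promoters. Promoters were matched for 35 of the 39 genes (Eif4ebp1, Slc1a5, Gars1 and Xpot had no entry), and 11 of the 35 held the motif. It was found in 5 of 11 synthetase promoters, Aars1, Iars1, Mars1, Nars1 and Tars1, against 0 of 9 among the other cytosolic synthetase and scaffold genes and 0 of 16 among the mitochondrial synthetases. The remaining 6 were Nupr1, Trib3, Chac1, Slc7a1, Fgf21 and Inhbe. Outside the 39, the motif was also found in 6 of 22 promoters of further ATF4 targets. It was in 2 of 17 promoters of eIF2 genes and in 1 of 10 of other bZIP stress factors. The bases in capitals mark the motif in the stretches below, where TTGCATCA and TTACATCA are the motif read from the opposite strand. The stretches are shown because synthetases that passed the test below and 1 that did not, Tars1, carry the same letters. Nars1, which did not pass either, carries the motif on the gene strand as TGATGCAA and is not shown.
Aars1, chr19:55908346-55908401 on the plus strand: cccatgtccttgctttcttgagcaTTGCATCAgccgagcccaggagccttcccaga
Iars1, chr17:15193653-15193700 on the minus strand: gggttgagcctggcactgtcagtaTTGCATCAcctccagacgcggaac
Mars1, chr7:65023754-65023794 on the minus strand: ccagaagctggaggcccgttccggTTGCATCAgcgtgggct
Tars1, chr2:62114803-62114853 on the minus strand: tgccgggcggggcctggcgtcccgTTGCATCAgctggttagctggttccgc
Chac1, chr3:126795940-126795995 on the plus strand: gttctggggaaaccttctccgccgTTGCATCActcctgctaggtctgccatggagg
Trib3, chr3:161275534-161275578 on the minus strand: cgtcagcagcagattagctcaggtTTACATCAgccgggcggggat
Slc7a1, chr12:11664434-11664487 on the plus strand: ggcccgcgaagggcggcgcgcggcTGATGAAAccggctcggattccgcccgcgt
Inhbe, chr7:65064716-65064769 on the minus strand: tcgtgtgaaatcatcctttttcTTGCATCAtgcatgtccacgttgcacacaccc
Of the 11 genes with the motif, 8 were lower with MMA+FA than in control cells by TPM as deposited, and 3 passed the test in neither direction (Trib3, Nars1 and Tars1). Of the 24 without it, 2 were higher, 16 lower and 6 neither, beside 6.67% higher and 32.6% lower of all tested genes. After the median-ratio scaling described below, only Fgf21, Inhbe and Mars1 of the 8 stayed lower, and Tars1 was called higher. Among those without the motif, Vldlr, Asns, Slc3a2, Gdf15, Eprs1 and Wars1 stayed lower after it, and Atf4, Sesn2 and Slc38a2 were called higher. A match describes these letters only, and a missing match says nothing about the factor.

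Atf4 rose with every treatment on the deposited scale. With both agents 27 of the other 38 genes were called lower there, against 11 with MMA alone and 2 with FA alone. In limma, at a Benjamini-Hochberg adjusted p under 0.05 over all tested genes, 29 of the 39 genes differed between MMA+FA and control, 2 higher (Atf4 and Sesn2) and 27 lower. The share of all tested genes called in that comparison was 39.3%, with 6.67% higher and 32.6% lower. With MMA alone 12 of the 39 were called, 1 higher and 11 lower, beside 20.4% of all genes (3.85% higher, 16.5% lower). With FA alone 4 were called, Atf4 and Sesn2 higher and Nupr1 and Wars1 lower, beside 12.4% of all genes (3.67% higher, 8.7% lower), so that the share of these genes called with FA was near that of all genes. Libraries of the treated and control groups did not overlap for 2 genes higher and 22 lower with MMA (45.3% of all genes), 4 higher and 11 lower with FA (33.7%), and 2 higher and 29 lower with MMA+FA (53.7%). The 3 comparisons share the control libraries. Atf4, Nupr1 and Wars1 passed the test in all 3 of them, and 10 genes passed in none.

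**Figure D1:**
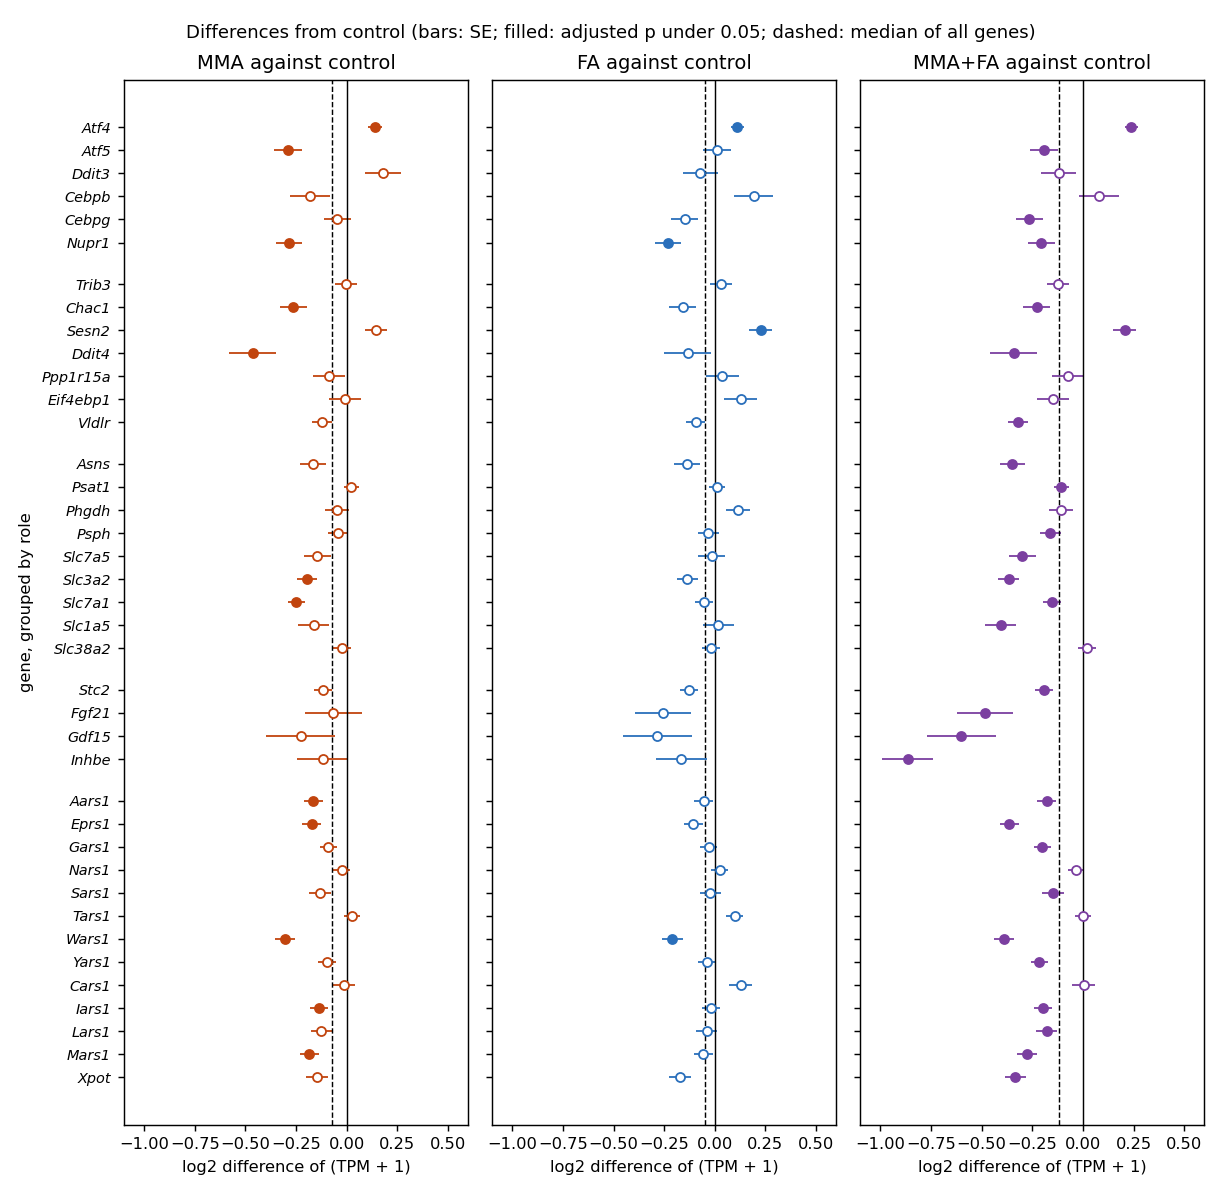
Log2 differences of TPM + 1 from control for the 39 genes, grouped by role, with MMA, FA and MMA+FA in separate panels. Points are differences of group means with limma's SE as bars, filled symbols have an adjusted p under 0.05, and the dashed line is the median of all tested genes. Atf4 lies to the right of 0 in each panel, and with MMA+FA 34 of 39 genes lie to the left of it.

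The scale of these values matters, since TPM are shares of a fixed total. The median log2 difference from control was -0.07 over all tested genes and -0.12 over the 39 for MMA, -0.05 and -0.04 for FA, and -0.12 and -0.19 for MMA+FA. A second scaling, in which libraries were divided by the median of their gene-wise ratios to a common reference, set the MMA+FA median of all genes to 0.00. The split of calls over all genes for MMA+FA against control then moved from 6.67% higher and 32.6% lower to 15.5% higher and 13.9% lower, and the 39 genes counted 4 higher and 11 lower, with a median of -0.07. The same scaling gave 2 higher and 3 lower with MMA, beside 15.1% of all genes (8.16% higher, 6.91% lower), and 3 higher and none lower with FA, beside 9.66% (5.78% higher, 3.88% lower). Without MMA+FA replicate 3, which held the lowest value of all 12 libraries for 25 of the 39 genes, 21 genes were called on the deposited scale, the same number as without control replicate 3. Some markers of other cell types moved with the groups. The summed TPM of the cardiomyocyte list was 229.5 to 232 in control libraries, 220.1 to 230.3 with MMA, 245 to 258 with FA and 276 to 297 with MMA+FA, and that of the skeletal list 104 to 116, 94.2 to 96.9, 92.0 to 107 and 66.2 to 76.2, while the fibroblast list ran from 10020 to 10780, 10400 to 11630, 11720 to 13630 and 10600 to 12190. The first of these changes rested on Tnnt2, which read 16.1 ± 2.41 TPM in control and 73.6 ± 9.54 with MMA+FA (SD, n = 3; log2 2.12, adjusted p = 2.63e-07), while Atp2a2 (-0.02), Nkx2-5 (0.03) and Gata4 (-0.15) were not called. The second rested on Myod1, with 72.7 ± 2.57 and 31.7 ± 3.30 TPM (log2 -1.17, adjusted p = 1.42e-05), while Des was called higher (0.38, adjusted p = 0.0322) and Myog was not called (0.22, adjusted p = 0.0519). Their part in the results below was not tested, and in bulk RNA fewer cells of a type and less RNA per cell cannot be told apart.

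**Figure D2:**
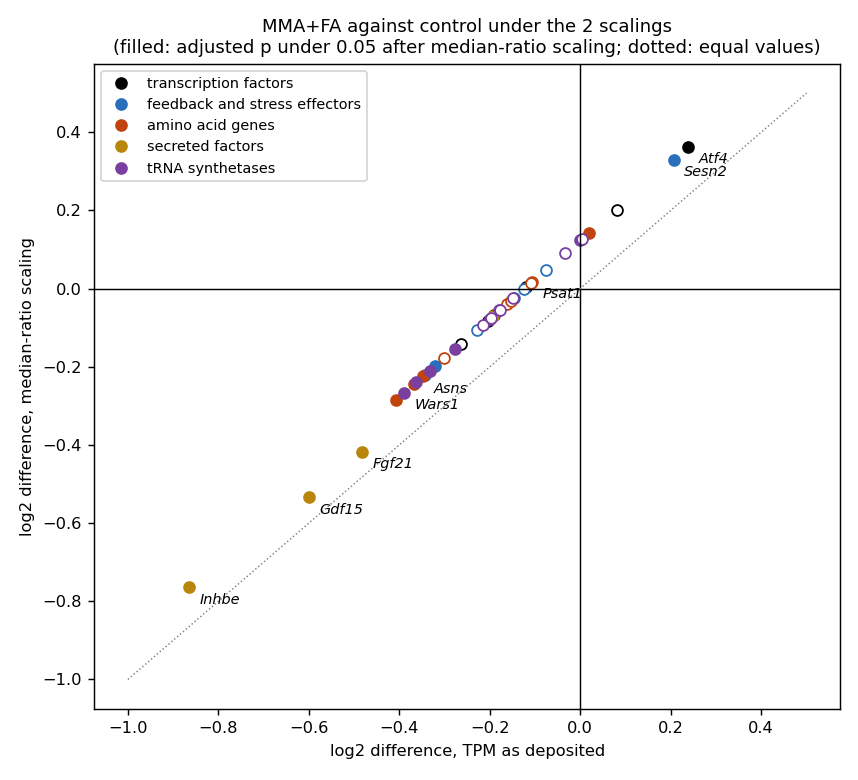
Log2 differences between MMA+FA and control for the 39 genes, with TPM as deposited on the horizontal axis and after median-ratio scaling on the vertical axis. Colours give the role, filled symbols have an adjusted p under 0.05 after scaling, and the dotted line marks equal values. Every gene lies above the dotted line, and Atf4 and Sesn2 at the upper right and Inhbe, Gdf15 and Fgf21 at the lower left stay filled.

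Among the 6 transcription factors, Atf4 rose in all 3 treated groups, Nupr1 was lower in all 3 on the deposited scale, Atf5 was lower with MMA and with MMA+FA, and Cebpg was lower with MMA+FA. Atf4 read 604, 632 and 627 TPM in the control libraries, 669.7, 689.8 and 693 with MMA, 672, 657 and 685 with FA, and 742, 729 and 727 with MMA+FA. Every treated library lay above every control library, and every MMA+FA library lay above every library of the other groups. The rise over control was small in size: 0.14, SE 0.03, adjusted p = 0.012 on the log2 scale with MMA, 0.11, SE 0.03, adjusted p = 0.0418 with FA and 0.24, SE 0.03, adjusted p = 0.000264 with MMA+FA. Atf4 was the only 1 of the 39 genes whose group means ran in the order control, FA, MMA, MMA+FA (621 ± 15.0, 671 ± 14.3, 684 ± 12.8 and 733 ± 8.0 TPM, SD, n = 3). The order of FA and MMA in it is within their spread, since libraries of these 2 groups overlap. Median-ratio scaling raised the difference for MMA+FA to 0.36, adjusted p = 5.71e-05. The call with MMA was lost without control replicate 1 (log2 0.12, adjusted p = 0.0562), and that with FA without any 1 control replicate, MMA replicate 1 or 2, FA replicate 1 or 3, or MMA+FA replicate 1 or 2 (log2 0.09 to 0.13, adjusted p = 0.0534 to 0.135), while that with MMA+FA held in every alternative run. The call with FA was also lost without the filter on mean TPM, without limma's trend, with a replicate block, and when only the groups compared were fitted. It was kept in 7 of 20 alternative runs.

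Atf5, a close relative that is itself controlled at translation, read 667, 632 and 622 TPM in the control libraries, 537, 537 and 497 with MMA, 603, 623 and 713 with FA, and 586, 591 and 509 with MMA+FA. Its libraries lay below every control library with MMA and MMA+FA and overlapped them with FA. It fell with MMA (-0.29, SE 0.07, adjusted p = 0.0138) and with MMA+FA (-0.19, adjusted p = 0.0449), and was 0.01 with FA. Neither fall kept its call after median-ratio scaling (log2 -0.21, adjusted p = 0.0644 and -0.07, adjusted p = 0.509). The call with MMA was lost without control replicate 1 or MMA replicate 3 (log2 -0.26 to -0.25, adjusted p = 0.0583 to 0.0608) and that with MMA+FA without any 1 control replicate, MMA replicate 1 or 2, or MMA+FA replicate 3 (log2 -0.21 to -0.12, adjusted p = 0.0557 to 0.179). The call with MMA+FA was kept in 9 of 20 alternative runs. Within a library, the ratio of Atf5 to Atf4, which no scaling of the library can change, had means of 1.03 ± 0.0625 in control cells, 0.766 ± 0.0444 under MMA, 0.962 ± 0.0720 under FA and 0.766 ± 0.0585 under the combination (SD, n = 3). This ratio also falls when Atf4 alone rises.

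Nupr1, a small stress-induced chromatin cofactor, read 95.3, 88.1 and 87.0 TPM in the control libraries, 78.7, 71.4 and 71.4 with MMA, 72.7, 77.0 and 80.4 with FA, and 76.8, 85.2 and 72.5 with MMA+FA. Libraries for this gene lay below every control library with MMA, FA and MMA+FA, and it was called lower with MMA (-0.28, adjusted p = 0.0114), FA (-0.23, adjusted p = 0.0395) and MMA+FA (-0.20, adjusted p = 0.0255). None of these calls held after median-ratio scaling (log2 -0.21, -0.18 and -0.08). The call with MMA was lost without control replicate 1 (log2 -0.24, adjusted p = 0.0527), that with FA without any 1 control replicate, MMA replicate 2, FA replicate 1 or 3, or MMA+FA replicate 1 (log2 -0.26 to -0.19, adjusted p = 0.0506 to 0.135), and that with MMA+FA without control replicate 1 or MMA+FA replicate 1 or 3 (log2 -0.19 to -0.15, adjusted p = 0.0694 to 0.102). The table lists this locus as noncoding, and reads shared with its relative Nupr1l1 were not examined, so its level is uncertain.

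Cebpg, a C/EBP partner of ATF4, read 73.0, 75.3 and 75.9 TPM in the control libraries, 74.9, 76.0 and 66.5 with MMA, 67.4, 72.8 and 62.4 with FA, and 64.7, 63.8 and 57.8 with MMA+FA. These values lay below every control library with FA and MMA+FA and overlapped them with MMA. The gene fell with MMA+FA (-0.26, adjusted p = 0.00795), a call that median-ratio scaling ended (-0.14, adjusted p = 0.127). Ddit3, which encodes the pro-apoptotic factor CHOP and is commonly used as a marker of a strong ATF4 response, read 129, 147 and 148 TPM in the control libraries, 141, 167 and 173 with MMA, 131, 133 and 139 with FA, and 129, 145 and 116 with MMA+FA. By library, the values overlapped the control libraries with MMA, FA and MMA+FA, and no comparison with control was called (log2 0.18 under MMA, -0.07 under FA and -0.12 under the combination, adjusted p = 0.161, 0.61 and 0.295). Ddit3 was lower with MMA+FA than with MMA (-0.30, adjusted p = 0.0405), but not after median-ratio scaling (-0.25, adjusted p = 0.107) nor without control replicate 2, MMA replicate 2 or 3, FA replicate 1, or MMA+FA replicate 1 or 3 (log2 -0.30 to -0.22, adjusted p = 0.0523 to 0.149). Cebpb, an inducible partner, ranged from 58.3 to 94.0 TPM and was called in no comparison.

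**Figure D3:**
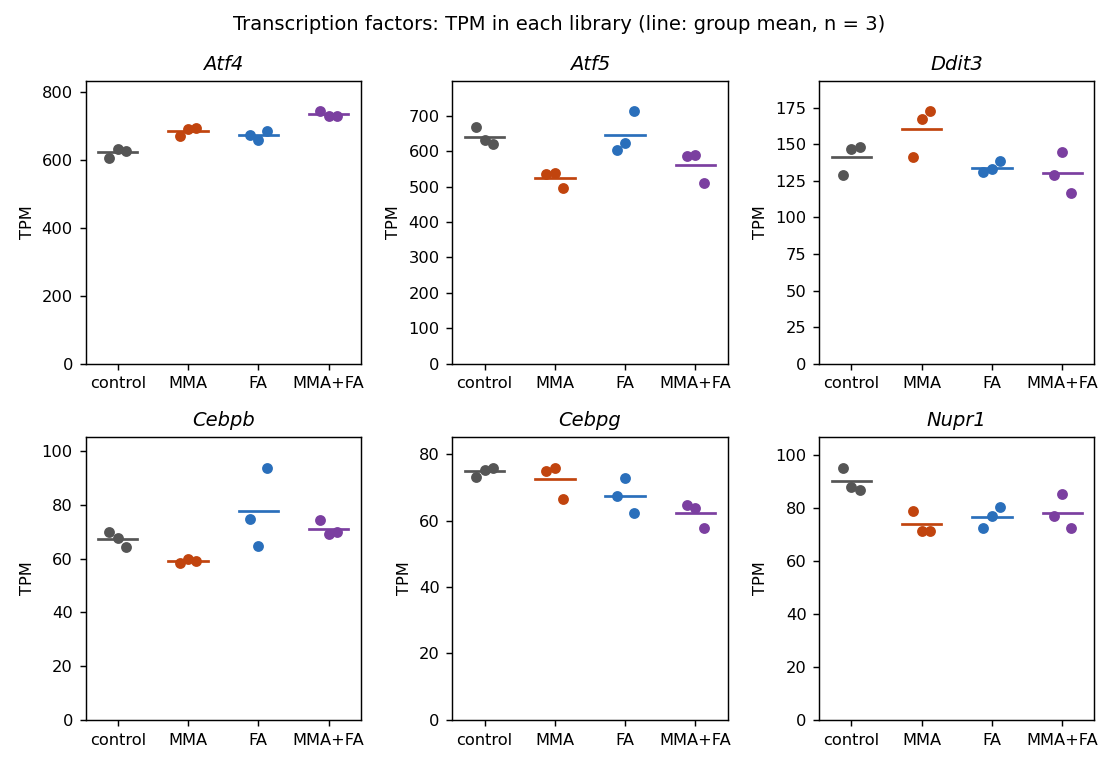
TPM of the 6 transcription factor genes in each of the 12 libraries, by group, with a line at the group mean (n = 3) and axes starting at 0. The Atf4 libraries step up from 604 to 632 TPM in control to 727 to 742 with MMA+FA, whereas Nupr1 is highest in the control libraries.

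Of the 7 feedback and stress effectors, Sesn2 rose with FA and with MMA+FA, whereas Vldlr, Ddit4 and Chac1 fell. Sesn2, a leucine sensor that restrains mTORC1, read 144, 140.0 and 141 TPM in the control libraries, 157, 156 and 157 with MMA, 158, 157 and 184 with FA, and 171, 162 and 158 with MMA+FA. Its treated libraries lay above every control library with MMA, FA and MMA+FA. The rise was 0.23, SE 0.06, adjusted p = 0.0244 with FA and 0.21, SE 0.06, adjusted p = 0.0113 with MMA+FA, while the value with MMA (0.14, adjusted p = 0.0829) did not pass on the deposited scale but did after median-ratio scaling (log2 0.22, adjusted p = 0.0207). The call with FA was lost without any 1 control replicate (log2 0.22 to 0.24, adjusted p = 0.0552 to 0.0897), and the call with MMA+FA held in every alternative run.

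Vldlr, a lipoprotein receptor gene that ATF4 activates, read 431, 426 and 465 TPM in the control libraries, 419, 408 and 388 with MMA, 411, 416 and 409 with FA, and 375, 348 and 335 with MMA+FA. In single libraries it lay below every control library with MMA, FA and MMA+FA. Its level fell with MMA+FA (-0.32, SE 0.05, adjusted p = 0.000473), and held in every alternative run, with a log2 difference of -0.20 after median-ratio scaling. Ddit4, an mTORC1 inhibitor also known as REDD1, read 54.5, 53.4 and 48.4 TPM in the control libraries, 33.8, 36.2 and 43.0 with MMA, 53.8, 43.6 and 45.1 with FA, and 45.9, 34.1 and 43.5 with MMA+FA. Library by library, it lay below every control library with MMA and MMA+FA and overlapped them with FA. It fell with MMA (-0.46, SE 0.12, adjusted p = 0.0166) and with MMA+FA (-0.34, adjusted p = 0.0338). Only the fall with MMA stayed called after median-ratio scaling (log2 -0.39 against -0.22). The Ddit4 call with MMA was lost without control replicate 1 or MMA replicate 1 or 2 (log2 -0.44 to -0.39, adjusted p = 0.0517 to 0.0637). That with MMA+FA was lost without control replicate 1 or 2 or MMA+FA replicate 2 (log2 -0.32 to -0.22, adjusted p = 0.0859 to 0.142).

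Chac1, an enzyme that degrades glutathione, read 151, 138 and 150.3 TPM in the control libraries, 113, 118 and 136 with MMA, 136, 127 and 130.5 with FA, and 126, 118 and 131 with MMA+FA. All its treated libraries lay below every control library. It was called lower with MMA (-0.26, adjusted p = 0.0176) and MMA+FA (-0.23, adjusted p = 0.0176), and median-ratio scaling ended both calls (log2 -0.19 and -0.11). The first was lost without control replicate 1 or 3 or MMA replicate 1 or 2 (log2 -0.25 to -0.21, adjusted p = 0.0603 to 0.0685), the second without control replicate 1 or 3 or MMA+FA replicate 2 (log2 -0.21 to -0.19, adjusted p = 0.062 to 0.0725). Eif4ebp1, a translation repressor, read 709, 726 and 714 TPM in the control libraries, 735, 704 and 696 with MMA, 763, 718 and 874 with FA, and 740.0, 619.8 and 589.6 with MMA+FA. Compared singly, its libraries overlapped the control libraries with MMA, FA and MMA+FA, with FA replicate 3 the highest of all 12 and MMA+FA replicate 3 the lowest. Eif4ebp1 was called in no comparison with control and was lower with MMA+FA than with FA (-0.27, adjusted p = 0.0478), a call lost without any 1 control replicate, any 1 MMA replicate, FA replicate 1 or 3, or MMA+FA replicate 2 or 3 (log2 -0.29 to -0.19, adjusted p = 0.0577 to 0.15). Trib3, a pseudokinase that inhibits ATF4, ranged from 225 to 292 TPM, and Ppp1r15a, which directs a phosphatase to eIF2, from 234 to 317 TPM. Neither was called in any comparison.

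The 9 amino acid genes were lower with MMA+FA for 7 and called in neither direction for Phgdh and Slc38a2. With MMA alone Slc3a2 and Slc7a1 were lower, and with FA alone none was called. With FA 1 had an unadjusted p under 0.05 in limma, beside 3809 of all 12263 tested genes. Of all tested genes, 32.6% were called lower with MMA+FA, 16.5% with MMA and 8.7% with FA. After median-ratio scaling 1 of the 9 was higher and 3 lower with MMA+FA, beside 15.5% and 13.9% of all genes. With MMA that scaling left 1 of the 9 lower, beside 6.91%. Asns, which makes asparagine and is a classic ATF4 target, read 224, 237 and 244 TPM in the control libraries, 211, 214 and 203 with MMA, 213, 220.3 and 208 with FA, and 195, 197 and 163 with MMA+FA. Its libraries lay below every control library with MMA, FA and MMA+FA. The fall with MMA+FA was -0.35, SE 0.06, adjusted p = 0.00145 and -0.22 after median-ratio scaling, and it kept its call in every alternative run. Its values with MMA (-0.16, adjusted p = 0.0861) and FA (-0.14, adjusted p = 0.171) did not pass the test.

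Slc3a2 encodes the heavy chain that carries several amino acid exchangers to the cell surface, and read 889, 906 and 918 TPM in the control libraries, 800.0, 810.2 and 759 with MMA, 804, 810.0 and 856 with FA, and 739, 727 and 640.4 with MMA+FA. The libraries lay below every control library with MMA, FA and MMA+FA. The gene fell with MMA (-0.20, adjusted p = 0.0207) and further with MMA+FA (-0.37, SE 0.05, adjusted p = 0.000323). Its fall with MMA+FA kept its call in every alternative run (log2 -0.24 after median-ratio scaling), but that with MMA was lost under that scaling (-0.12) and without any 1 control replicate or MMA replicate 3 (log2 -0.21 to -0.17, adjusted p = 0.0513 to 0.0855). Slc7a5, the light chain LAT1 that pairs with it to import large neutral amino acids, read 348, 339 and 335 TPM in the control libraries, 318, 304 and 302 with MMA, 336, 315 and 361 with FA, and 306, 276 and 249.7 with MMA+FA. Libraries for this gene lay below every control library with MMA and MMA+FA and overlapped them with FA. The fall with MMA+FA was -0.30, SE 0.07, adjusted p = 0.00405, and -0.18, adjusted p = 0.0624 after median-ratio scaling.

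Slc1a5, the glutamine transporter ASCT2, read 135, 126 and 129 TPM in the control libraries, 121, 114 and 113 with MMA, 132, 121 and 143 with FA, and 103, 105 and 86.8 with MMA+FA. By library, the values lay below every control library with MMA and MMA+FA and overlapped them with FA. It had the largest fall of the amino acid genes with MMA+FA (-0.41, SE 0.07, adjusted p = 0.0014), which held in every alternative run (log2 -0.28 after median-ratio scaling). Slc7a1, a cationic amino acid transporter, read 96.9, 95.7 and 98.7 TPM in the control libraries, 84.0, 81.0 and 79.9 with MMA, 91.1, 93.7 and 95.6 with FA, and 92.6, 84.9 and 84.3 with MMA+FA. In single libraries it lay below every control library with MMA, FA and MMA+FA. Slc7a1 fell with MMA (-0.25, SE 0.04, adjusted p = 0.00407) and with MMA+FA (-0.15, adjusted p = 0.0148). The first call held in every alternative run, with -0.17 after median-ratio scaling, where the second was lost (-0.03), as it was without control replicate 3 or MMA+FA replicate 2 or 3 (log2 -0.14 to -0.13, adjusted p = 0.0537 to 0.0566). After that scaling Slc7a1 was higher with MMA+FA than with MMA (log2 0.14, adjusted p = 0.0397), a difference not called on the deposited scale (0.09, adjusted p = 0.177).

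Of the serine synthesis genes, Psat1 and Psph were called lower with MMA+FA and Phgdh was not. Psat1, the transaminase of this pathway, read 321, 339.9 and 326 TPM in the control libraries, 339, 332 and 331 with MMA, 331, 339 and 325 with FA, and 317, 306 and 294 with MMA+FA. Library by library, it lay below every control library with MMA+FA and overlapped them with MMA and FA. It was called lower with MMA+FA (-0.11, adjusted p = 0.04), but its sign turned after median-ratio scaling (log2 0.02, adjusted p = 0.798), and the call was lost without control replicate 2 or 3, MMA replicate 1 or 2, FA replicate 1, or MMA+FA replicate 2 or 3 (log2 -0.11 to -0.08, adjusted p = 0.0537 to 0.151). Psph, the last enzyme of the pathway, read 157, 159 and 159.6 TPM in the control libraries, 154, 159 and 150.0 with MMA, 148, 160.1 and 158 with FA, and 153, 140.3 and 132 with MMA+FA. Compared singly, its libraries lay below every control library with MMA+FA and overlapped them with MMA and FA. Psph was called lower with MMA+FA (-0.16, adjusted p = 0.0255), but not after median-ratio scaling (-0.04) nor without any 1 control replicate or MMA+FA replicate 2 or 3 (log2 -0.17 to -0.11, adjusted p = 0.0516 to 0.104). Phgdh, the first enzyme, read 248, 257 and 249 TPM in the control libraries, 239.6, 239 and 251 with MMA, 277, 248 and 294 with FA, and 244, 238 and 217 with MMA+FA. Its libraries lay below every control library with MMA+FA and overlapped them with MMA and FA, and it was called only as lower with MMA+FA than with FA (-0.22, adjusted p = 0.0358), which was lost without any 1 control replicate, MMA replicate 1 or 2, FA replicate 1 or 3, or MMA+FA replicate 2 or 3 (log2 -0.24 to -0.17, adjusted p = 0.05 to 0.115). Slc38a2, a small neutral amino acid transporter that cells induce when starved of amino acids, ranged from 429 to 474 TPM and was called in no comparison on the deposited scale. After median-ratio scaling it was called higher with MMA+FA (log2 0.14, adjusted p = 0.0248).

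**Figure D4:**
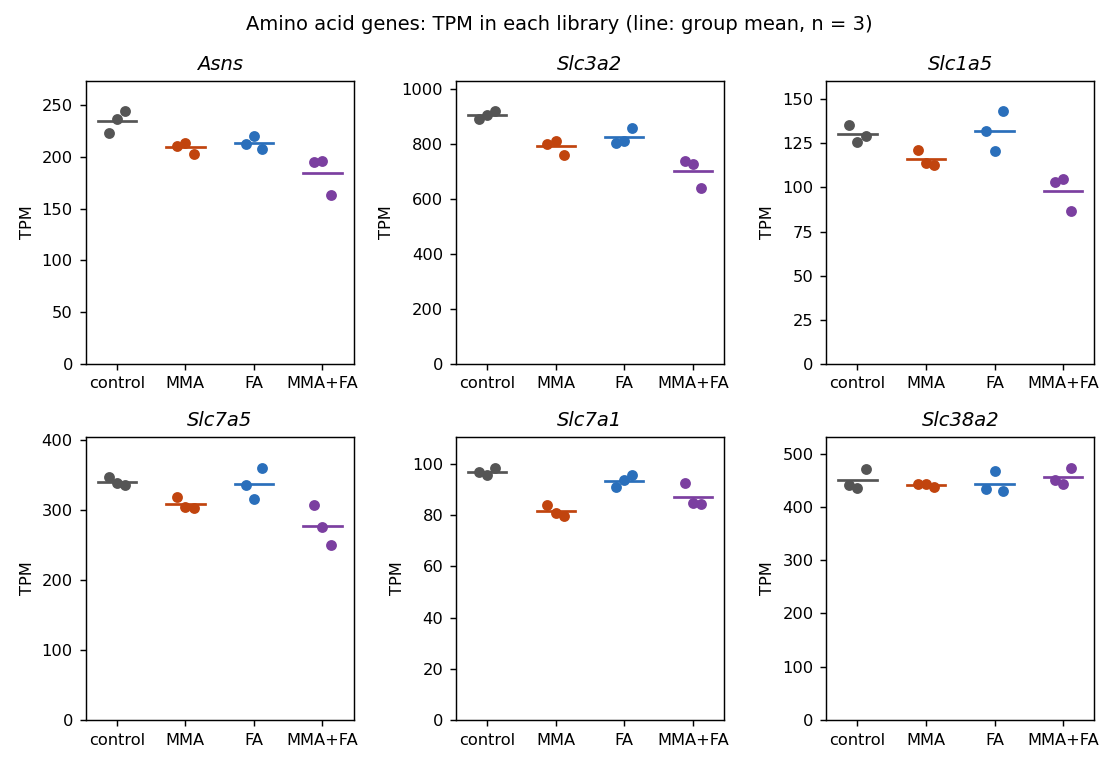
TPM of 6 amino acid genes in each library, by group, with a line at the group mean (n = 3) and axes starting at 0. MMA+FA replicate 3 is the lowest library for Asns, Slc3a2, Slc1a5 and Slc7a5, and Slc38a2 shows overlapping libraries in the 4 groups.

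Relative to Atf4 in the same library, the summed TPM of the 9 amino acid genes was 4.66 ± 0.0793 in control cells, 3.92 ± 0.128 under MMA, 4.18 ± 0.0525 under FA and 3.39 ± 0.152 under the combination (SD, n = 3). The ratio of Asns to Atf4 was 0.378 ± 0.0102, 0.306 ± 0.0113, 0.319 ± 0.0162 and 0.252 ± 0.0247 in the same order. For both ratios every treated library lay below every control library and every MMA+FA library lay below all others. A ratio within a library does not depend on how that library is scaled, but both ratios also fall when Atf4 alone rises. The summed TPM of the 9 genes was 2861 to 2931 in control libraries, 2628 to 2710 with MMA and 2341 to 2601 with MMA+FA. With FA it was 2767 to 2868, which overlaps the control libraries.

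The 4 secreted factors all fell with MMA+FA, and none was called with MMA or with FA. An unadjusted p under 0.05 in limma was found for 1 with MMA and 1 with FA, beside 4415 and 3809 of all 12263 tested genes. Of all tested genes, 32.6% were called lower with MMA+FA, 16.5% with MMA and 8.7% with FA. After median-ratio scaling 3 of the 4 were called lower with MMA+FA, beside 13.9% of all genes. Inhbe, a subunit of activin E, read 6.22, 6.55 and 6.48 TPM in the control libraries, 5.69, 6.27 and 5.55 with MMA, 6.49, 5.27 and 5.16 with FA, and 3.12, 3.94 and 2.31 with MMA+FA. Libraries for this gene lay below every control library with MMA+FA and overlapped them with MMA and FA. On the scale of log2(TPM + 1) it showed the largest difference among the 39 genes (-0.87, SE 0.13, adjusted p = 0.000394) and -0.76 after median-ratio scaling. By the ratio of mean TPM in control to that with MMA+FA, Gdf15 (2.23) stood above Inhbe (2.05). Beside these, Inhbe read -0.12, adjusted p = 0.532 with MMA and -0.17, adjusted p = 0.395 with FA. Its fall with MMA+FA held in every alternative run against control and against MMA (-0.75, adjusted p = 0.00213), and it read -0.70, adjusted p = 0.0103 against FA.

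Stc2, a secreted glycoprotein induced by the unfolded protein response, read 66.3, 69.4 and 71.2 TPM in the control libraries, 63.5, 64.9 and 62.2 with MMA, 60.3, 62.5 and 66.6 with FA, and 60.5, 59.1 and 61.0 with MMA+FA. By library, the values lay below every control library with MMA and MMA+FA and overlapped them with FA. Its level fell with MMA+FA (-0.19, adjusted p = 0.00552), but not after median-ratio scaling (-0.07, adjusted p = 0.225). Gdf15, a stress hormone that signals to the hindbrain, was near the floor of the test and read 1.15, 1.97 and 2.00 TPM in the control libraries, 1.79, 1.29 and 0.870 with MMA, 1.23, 1.43 and 0.960 with FA, and 0.690, 0.750 and 0.860 with MMA+FA. In single libraries it lay below every control library with MMA+FA and overlapped them with MMA and FA. Fgf21, a hormone induced by mitochondrial stress in muscle, read 1.27, 1.51 and 1.64 TPM in the control libraries, 1.40, 1.38 and 1.30 with MMA, 1.08, 1.40 and 0.770 with FA, and 0.610, 1.06 and 0.660 with MMA+FA. Those libraries lay below every control library with MMA+FA and overlapped them with MMA and FA. Both were called lower with MMA+FA, Gdf15 at -0.60, adjusted p = 0.0148 and Fgf21 at -0.48, adjusted p = 0.0163, and after median-ratio scaling (-0.53 and -0.42). At these low TPM the added 1 understates a change. The Gdf15 call was lost without control replicate 2 or 3 (log2 -0.52, adjusted p = 0.0567 to 0.0607), and the Fgf21 call without control replicate 3 or MMA+FA replicate 1 or 3 (log2 -0.44 to -0.42, adjusted p = 0.0536 to 0.0601).

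Cytosolic tRNA synthetases attach amino acids to their tRNAs, and many are ATF4 targets. Of the 12 synthetases here 9 were lower with MMA+FA and none higher, and Nars1, Tars1 and Cars1 were called in neither direction. With MMA 5 were lower (Aars1, Eprs1, Wars1, Iars1 and Mars1), and with FA 1 (Wars1). Of all tested genes, 32.6% were called lower with MMA+FA, 16.5% with MMA and 8.7% with FA. After median-ratio scaling 1 of the 12 was higher and 3 lower with MMA+FA, beside 15.5% and 13.9% of all genes. That scaling left 1 lower with MMA and 1 higher with FA. Wars1, for tryptophan, read 102, 99.96 and 104 TPM in the control libraries, 84.0, 86.3 and 77.5 with MMA, 87.3, 87.8 and 89.4 with FA, and 80.0, 80.8 and 72.5 with MMA+FA. All treated libraries lay below every control library. The fall was -0.30, SE 0.05, adjusted p = 0.00344 with MMA, -0.21, SE 0.05, adjusted p = 0.0233 with FA and -0.39, SE 0.05, adjusted p = 0.000195 with MMA+FA. The calls with MMA and with MMA+FA held in every alternative run (log2 -0.23 and -0.27 after median-ratio scaling). The call with FA was lost under that scaling (-0.16) and without control replicate 1 or 3 or FA replicate 1 or 3 (log2 -0.22 to -0.20, adjusted p = 0.0501 to 0.0937).

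Eprs1, which loads glutamate and proline, read 583, 612 and 616 TPM in the control libraries, 553, 549 and 506 with MMA, 560.1, 562 and 559 with FA, and 488, 482 and 438 with MMA+FA. Its treated libraries lay below every control library with MMA, FA and MMA+FA. It fell with MMA (-0.17, adjusted p = 0.025) and with MMA+FA (-0.36, SE 0.05, adjusted p = 0.000211). Only the latter was called after median-ratio scaling (log2 -0.24 against -0.09), and the call with MMA was lost without control replicate 2 or 3 or MMA replicate 3 (log2 -0.16 to -0.13, adjusted p = 0.0729 to 0.104). Mars1, for methionine, read 184, 187 and 181 TPM in the control libraries, 167, 160.0 and 159 with MMA, 176, 173 and 182 with FA, and 163, 150.3 and 142 with MMA+FA. Library by library, it lay below every control library with MMA and MMA+FA and overlapped them with FA. The gene fell with MMA (-0.18, adjusted p = 0.0196) and MMA+FA (-0.28, SE 0.05, adjusted p = 0.00104). The latter kept its call in every alternative run (-0.15 after median-ratio scaling), while the former was lost under that scaling (-0.11) and without control replicate 1 or 2 or MMA replicate 2 or 3 (log2 -0.18 to -0.17, adjusted p = 0.0586 to 0.0714).

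Aars1, for alanine, read 385, 388 and 378 TPM in the control libraries, 343, 346 and 338 with MMA, 362, 352 and 396 with FA, and 358, 336 and 324 with MMA+FA. These libraries lay below every control library with MMA and MMA+FA and overlapped them with FA. Iars1, for isoleucine, read 90.8, 95.3 and 91.5 TPM in the control libraries, 84.7, 84.3 and 83.2 with MMA, 92.2, 87.8 and 93.7 with FA, and 85.4, 77.7 and 78.9 with MMA+FA. Compared singly, its libraries lay below every control library with MMA and MMA+FA and overlapped them with FA. Aars1 and Iars1 were lower with MMA (-0.17, adjusted p = 0.0289 and -0.14, adjusted p = 0.0448) and with MMA+FA (-0.18, adjusted p = 0.0102 and -0.20, adjusted p = 0.00429). The Aars1 call with MMA was lost without any 1 control replicate or any 1 MMA replicate (log2 -0.18 to -0.16, adjusted p = 0.0598 to 0.0898), and that of Iars1 without any 1 control replicate, any 1 MMA replicate, FA replicate 1, or MMA+FA replicate 3 (log2 -0.15 to -0.12, adjusted p = 0.0511 to 0.139). With MMA the Aars1 call was kept in 12 and the Iars1 call in 7 of 20 alternative runs. After median-ratio scaling neither was called in either comparison (Aars1 -0.09 and -0.06, Iars1 -0.06 and -0.07).

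Yars1, for tyrosine, read 199, 207 and 208 TPM in the control libraries, 194, 194 and 185 with MMA, 197, 192 and 208 with FA, and 181, 179.8 and 167 with MMA+FA. Gars1, for glycine, read 373, 382 and 375 TPM in the control libraries, 365, 354 and 343 with MMA, 371, 369 and 366 with FA, and 349.6, 326 and 309 with MMA+FA. Yars1 lay below every control library with MMA and MMA+FA and overlapped them with FA, and Gars1 below every control library with MMA, FA and MMA+FA. Both fell with MMA+FA (-0.22, adjusted p = 0.00255 and -0.20, adjusted p = 0.00368). Lars1, for leucine, read 128, 130.1 and 126 TPM in the control libraries, 124, 119.7 and 108 with MMA, 125, 129 and 119 with FA, and 118, 110.4 and 111 with MMA+FA. Sars1, for serine, read 404, 405 and 396 TPM in the control libraries, 367, 366 and 366 with MMA, 393, 389 and 405 with FA, and 383, 381 and 325 with MMA+FA. Lars1 lay below every control library with MMA and MMA+FA and overlapped them with FA, and Sars1 below every control library with MMA and MMA+FA and overlapped them with FA. Both were called lower with MMA+FA (-0.18, adjusted p = 0.0181 and -0.15, adjusted p = 0.0427), but the Lars1 call was lost without control replicate 2 or MMA+FA replicate 2 or 3 (log2 -0.17 to -0.16, adjusted p = 0.0576 to 0.0608) and the Sars1 call without any 1 control replicate, any 1 MMA replicate, FA replicate 1, or MMA+FA replicate 3 (log2 -0.16 to -0.07, adjusted p = 0.0524 to 0.129). The Sars1 call was kept in 6 of 20 alternative runs. None of these 4 was called for MMA+FA after median-ratio scaling (log2 -0.09, -0.08, -0.06 and -0.02). Nars1, Tars1 and Cars1 differed from control with MMA+FA by -0.03, 0.00 and 0.00, and after median-ratio scaling Tars1 was called higher with MMA+FA (log2 0.12, adjusted p = 0.044) and with FA (0.15, adjusted p = 0.0482).

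Xpot, the receptor that carries tRNA out of the nucleus, read 129, 133 and 139 TPM in the control libraries, 125, 124 and 112 with MMA, 116, 122 and 116 with FA, and 108, 110.0 and 99.2 with MMA+FA. Its libraries lay below every control library with MMA, FA and MMA+FA. Its level fell with MMA+FA (-0.33, SE 0.05, adjusted p = 0.00066), and -0.21 after median-ratio scaling, and kept its call in every alternative run. The members were set beside synthetase genes outside the list. The median log2 difference with MMA+FA was -0.19 for the 12 listed synthetases, -0.04 for 8 other cytosolic synthetase genes and -0.04 for 16 mitochondrial ones, next to -0.12 for all genes. Among the 8, Farsb, a subunit of the phenylalanine enzyme, fell (-0.36, adjusted p = 0.00126), and Hars1, for histidine, rose (0.17, adjusted p = 0.0142), but did not pass without control replicate 1 (log2 0.12, adjusted p = 0.0638). Among the 16, Ears2 and Rars2 were lower (-0.44, adjusted p = 0.00129 and -0.29, adjusted p = 0.0238), but Rars2 did not pass after median-ratio scaling (-0.17) nor without control replicate 1 or 3 or MMA+FA replicate 1 or 2 (log2 -0.28 to -0.25, adjusted p = 0.0641 to 0.0826). The summed TPM of the 12 listed over the 8 others was 3.96 ± 0.0437 in control cells, 3.83 ± 0.0700 under MMA, 3.94 ± 0.0586 under FA and 3.69 ± 0.168 under the combination (SD, n = 3). The MMA+FA libraries (3.52 to 3.86) and the MMA libraries (3.75 to 3.88) lay below the control libraries (3.93 to 4.01) in this ratio. The MMA and MMA+FA ranges overlapped, and the FA libraries (3.89 to 4.01) overlapped the control libraries.

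**Figure D5:**
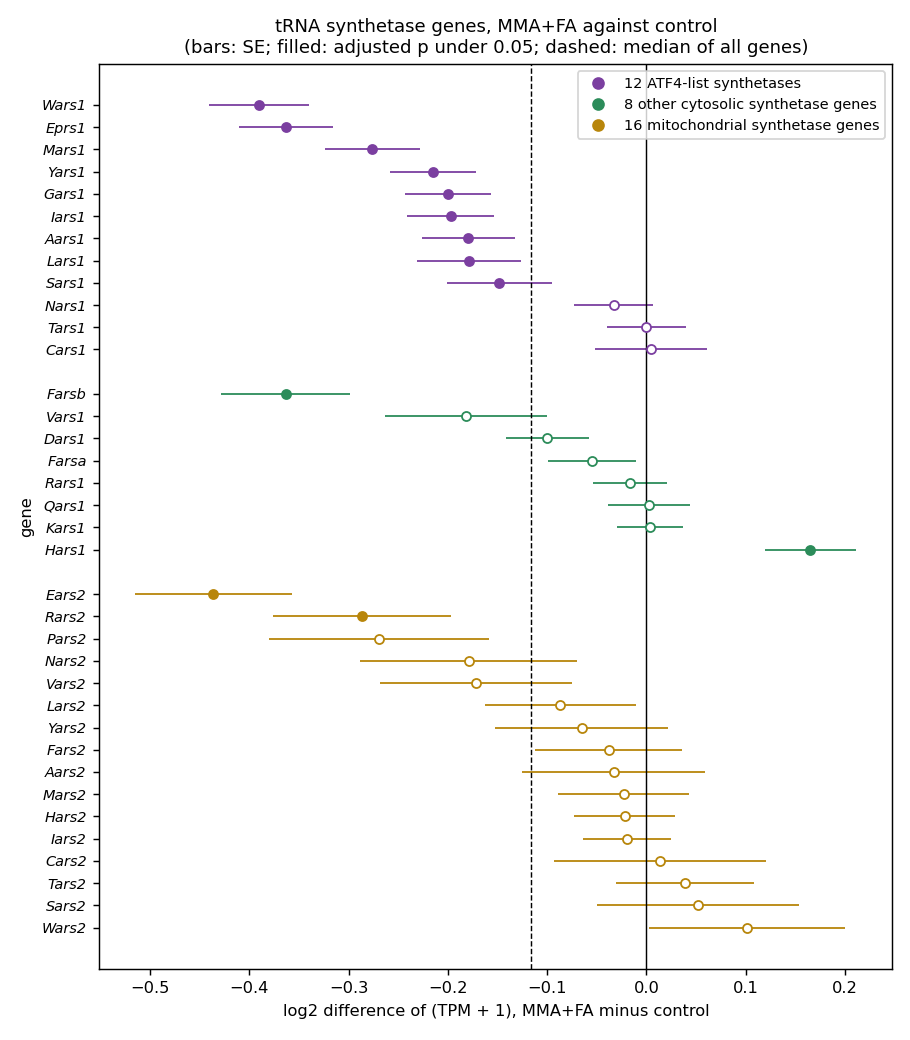
Log2 difference of TPM + 1 between MMA+FA and control for 12 listed tRNA synthetases, 8 other cytosolic synthetase genes and 16 mitochondrial ones, with SE as bars, filled symbols at an adjusted p under 0.05, and a dashed line at the median of all genes. The 9 filled listed genes run from -0.15 to -0.39 on the log2 scale, all left of the dashed line at -0.12.

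Adding FA to MMA lowered 9 of the 39 genes and raised none, beside 13.7% of all genes (4.19% higher, 9.53% lower). Inhbe had the largest difference (-0.75, adjusted p = 0.00213), followed by Ddit3 (-0.30), Slc1a5 (-0.24), Cebpg (-0.22), Vldlr (-0.20), Eprs1 (-0.19), Xpot (-0.19), Slc3a2 (-0.17) and Psat1 (-0.13). Atf4 was 0.10, adjusted p = 0.0632 on the deposited scale and was called after median-ratio scaling (0.14, adjusted p = 0.0214). That scaling left 4 calls, Atf4 and Slc7a1 higher and Vldlr and Inhbe lower, beside 12.6% of all genes (6.39% higher, 6.19% lower). Only Inhbe kept its call without any 1 library: the count fell to 1 when MMA replicate 2 or MMA+FA replicate 3 was left out, to 2 for MMA replicate 1, to 3 for FA replicate 1, to 4 for control replicate 2, to 5 for control replicate 3, and to 6 for control replicate 1, MMA replicate 3 or MMA+FA replicate 2.

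Adding MMA to FA raised Atf4 (0.13, SE 0.03, adjusted p = 0.0311) and lowered 13 genes, beside 10.5% of all genes (1.6% higher, 8.9% lower). The 13 were Inhbe (-0.70, adjusted p = 0.0103), Slc1a5 (-0.43, adjusted p = 0.00955), Slc7a5 (-0.28), Eif4ebp1 (-0.27), Eprs1 (-0.26, adjusted p = 0.0115), Slc3a2 (-0.23), Vldlr (-0.23), Phgdh (-0.22), Mars1 (-0.22), Iars1 (-0.18), Yars1 (-0.18), Gars1 (-0.17) and Wars1 (-0.18). Inhbe, Slc1a5 and Eprs1 kept their calls without any 1 library, and after median-ratio scaling these 3 and Atf4 (log2 0.20) were the calls that were left, beside 5.9% of all genes (3.43% higher, 2.46% lower). When only the groups compared were fitted, none of the 39 was called, these 3 included (adjusted p = 0.0965, 0.0926 and 0.0873 for Inhbe, Slc1a5 and Eprs1). The count was 3 without FA replicate 1 or MMA+FA replicate 3, 4 without MMA+FA replicate 2 and 5 without FA replicate 3. Atf4 was lost without FA replicate 1 or any 1 MMA+FA replicate (log2 0.12 to 0.13, adjusted p = 0.0668 to 0.0867).

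Whether the agents act additively was asked with the interaction term, the MMA+FA difference from control less the sum of those of MMA and FA. None of the 39 genes passed in limma, beside 2.41% of all genes (0.938% higher and 1.47% lower). An unadjusted p under 0.05 was found for 7 of the 39, beside 2163 of all 12263 tested genes. Inhbe read -0.58 on this term (SE 0.18, adjusted p = 0.113), with -0.12 for MMA, -0.17 for FA and -0.87 for both. Atf4 read -0.01 (adjusted p = 0.914), and its differences of 0.14 and 0.11 stood beside 0.24. Across the 4 groups, limma's F test called 27 of the 39 genes, beside 41% of all genes.

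Other genes of the pathway were counted from lists. A list of 17 genes held eIF2, its kinases, its exchange factor and regulators of these, Dele1 and Impact among them. With MMA+FA 2 of the 17 were higher and 5 lower, a share of 41.2% beside 39.3% of all genes. Of the 17, 4 were higher and 3 lower after median-ratio scaling, beside 15.5% and 13.9% of all genes. Dele1, which relays mitochondrial stress to the eIF2 kinase HRI, fell (-0.36, adjusted p = 0.00109), as did the exchange factor subunits Eif2b2 (-0.24, adjusted p = 0.000403) and Eif2b3 (-0.35, adjusted p = 0.00206) and the kinase Eif2ak2 (-0.26, adjusted p = 0.00444). Eif2ak3, the kinase PERK, was called lower (-0.24, adjusted p = 0.0201), but not without control replicate 1 or MMA+FA replicate 1 or 2 (log2 -0.21 to -0.18, adjusted p = 0.0664 to 0.0803). Neither Eif2ak2 nor Eif2ak3 was called after median-ratio scaling (-0.14 and -0.13). Eif2ak1, which encodes HRI, and Impact, an inhibitor of the amino acid sensing kinase, were higher (0.19, adjusted p = 0.00628 and 0.35, adjusted p = 0.0103). With MMA 1 of the 17 was called (5.88%, beside 20.4% of all genes), Eif2ak4, the amino acid sensor GCN2 (-0.28, adjusted p = 0.00964). With FA 1 was called (beside 12.4% of all genes), Eif2b3 (-0.23, adjusted p = 0.0491), and it did not pass without any 1 control replicate, MMA replicate 1 or 2, FA replicate 1 or 3, or MMA+FA replicate 1 (log2 -0.24 to -0.20, adjusted p = 0.0584 to 0.144).

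Among 12 tested stress factors of the bZIP class outside the 39, 2 were higher and 7 lower with MMA+FA, beside 6.67% higher and 32.6% lower of all genes. After median-ratio scaling 4 were higher and 3 lower, beside 15.5% and 13.9%. With MMA 1 was higher and 4 lower, beside 3.85% and 16.5%. That scaling left 2 higher and 2 lower with MMA, beside 8.16% and 6.91%. The 4 were Nfe2l1 (-0.23, adjusted p = 0.00502), Fosl1 (-0.37, adjusted p = 0.00761), Atf6 (-0.20, adjusted p = 0.021) and Nfe2l2. Atf6 did not pass with MMA without control replicate 3 or MMA replicate 2 or 3. Nfe2l2 did not pass without control replicate 1 or 3, any 1 MMA replicate or FA replicate 1. Atf3, a stress-induced ATF4 target, rose with MMA (0.37, adjusted p = 0.00324) and with MMA+FA (0.33, adjusted p = 0.00146), with 32.7 ± 1.71, 42.6 ± 1.78, 37.9 ± 3.23 and 41.3 ± 0.228 TPM in control, MMA, FA and MMA+FA (SD, n = 3). Maff rose with MMA+FA (0.34, adjusted p = 0.00379). Atf6 (-0.44, adjusted p = 0.000127), Cebpd (-0.41, adjusted p = 0.00025), Nfe2l2 (-0.44, adjusted p = 0.000334) and Nfe2l1 (-0.24, adjusted p = 0.00117) fell, Nfe2l1 not after median-ratio scaling (-0.12). With FA 2 of the 12 were higher and none lower, beside 3.67% and 8.7% of all genes: Cebpd (0.24, adjusted p = 0.0191), not called without control replicate 1 or 3 or FA replicate 1 or 3 (log2 0.22 to 0.23, adjusted p = 0.0554 to 0.0871), and Atf3 (0.20, adjusted p = 0.0455), called in the absence of FA replicate 2 but of no other library. Of 27 tested further ATF4 targets none was higher and 12 were lower with MMA+FA, and 9 were lower with MMA. These are shares of 44.4% and 33.3%, beside 32.6% and 16.5% of all genes called lower, and 39.3% and 20.4% called in either direction. After median-ratio scaling 1 was higher and 6 lower with MMA+FA, with a median of 0.005, beside 15.5% higher and 13.9% lower of all genes. With MMA that scaling left none higher and 4 lower, beside 8.16% higher and 6.91% lower. The examples were the mitochondrial protease Lonp1 (-0.53, adjusted p = 0.000154), the autophagy receptor Sqstm1 (-0.41, adjusted p = 0.000544), the cystine importer Slc7a11 (-0.45, adjusted p = 0.000673) and the neutral amino acid transporter Slc1a4 (-0.36, adjusted p = 0.000688). With FA (11.1% called, beside 12.4% of all genes), 1 of the 27 was higher, the transaminase Gpt2 (0.23, adjusted p = 0.0254), and 2 were lower, Rab32 (-0.40, adjusted p = 0.0348) and Lonp1 (-0.23, adjusted p = 0.0422). Gpt2 and Rab32 did not pass without any 1 control replicate or FA replicate 1 or 3 (adjusted p up to 0.0936 and 0.146), and Lonp1 did not pass without any 1 control replicate, MMA replicate 1 or 2, any 1 FA replicate, or MMA+FA replicate 1 (log2 -0.25 to -0.20, adjusted p = 0.051 to 0.134).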

How the data were processed

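RNA of 12 H9c2 libraries was measured, 3 in each of the 4 groups. Per the labels, libraries were made from polyadenylated RNA with a stranded Illumina kit. Trimming with fastp and alignment with HISAT2 to mRatBN7.2 are named in the submitters' processing notes, without versions. What the authors deposited is a gene table in TPM; RSEM appears only in its title. Depth is unknown, as TPM keeps none. All sample columns of the table were used.

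Genes averaging 1 TPM or more over the libraries (12263) entered a limma fit of log2(TPM + 1), with a mean for each of the groups and an intensity trend in the prior variance (limma 3.58.1 in R 4.3.3, package data.table version 1.17.8). Residual degrees of freedom were 8, those of the prior 4.317. Benjamini-Hochberg adjustment ran over all tested genes, and calls were made at an adjusted p under 0.05. Log2 differences are on this scale and understate changes of genes with few TPM. An exact permutation of 3 against 3 libraries cannot go below p = 0.1, so none is given. Motif counts and plots were made with Python 3.11.15, pandas 2.3.3 and matplotlib 3.10.9. The code was tested on simulated data.

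The 39 genes and the further lists were chosen with earlier results of these data known, and so were the alternatives: other scalings, pseudocounts and filters, no trend, a replicate block, only the groups compared, and each library left out. Per-library values were given for genes called in at least 1 comparison and for Atf4 and Ddit3, and from the further lists up to 4 called genes with the smallest p per comparison with control, and members of counts of 5 or fewer, could be named; part of them are. A gene of the further lists is not reported here.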

Additional observations from a re-analysis of the deposited data

Results flagged for a closer look

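None of the 39 genes had a group of at least 4 libraries in which a single value could be tested as standing apart, and none had an interaction that passed the test. Among the further genes of the pathway described here, 6 had an effect of 1 agent that differed with the other agent present. They were called by the interaction term in limma with Benjamini-Hochberg adjustment over all genes. Of these, 5 were among the 27 tested further ATF4 targets (18.5%) and 1 among the 12 tested bZIP factors (8.33%), beside 2.41% of all genes. None was called among the 17 eIF2 genes, the 11 other cytosolic synthetase and scaffold genes or the 16 mitochondrial synthetases. Cebpd, a C/EBP factor of the acute phase, had an interaction of -0.57, adjusted p = 0.0112, from log2 differences from control of -0.08 with MMA, 0.24 with FA and -0.41 with both. It kept this call without any 1 library and after median-ratio scaling. Slc38a7, a lysosomal glutamine exporter, had 0.49, adjusted p = 0.017, from -0.46 with MMA, -0.10 with FA and -0.08 with both, and did not pass without control replicate 1 or 3 (log2 0.47, adjusted p = 0.0517 to 0.0576). Tnfrsf12a, a TWEAK receptor, had 0.27, adjusted p = 0.0207, from -0.10 with MMA, -0.09 with FA and 0.08 with both, and did not pass without control replicate 1 or 3, MMA replicate 1 or 2, or FA replicate 1 (log2 0.26 to 0.27, adjusted p = 0.0583 to 0.0612).

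Pycr1, which makes proline, had -0.39, adjusted p = 0.0385, from 0.04 with MMA, 0.09 with FA and -0.26 with both. Gpt2, a mitochondrial alanine transaminase, had -0.35, adjusted p = 0.0427, from 0.08 with MMA, 0.23 with FA and -0.04 with both. Map1lc3b, an autophagosome protein, had 0.36, adjusted p = 0.0415, from -0.20 with MMA, -0.16 with FA and 0.00 with both. These 3 calls were lost when most single libraries were left out, at log2 values close to those above. Pycr1 did not pass without any 1 control replicate, any 1 MMA replicate, FA replicate 1 or 3, or MMA+FA replicate 1 (log2 -0.41 to -0.37, adjusted p = 0.0618 to 0.105). Gpt2 did not pass without any 1 control replicate, any 1 MMA replicate, FA replicate 1 or 3, or MMA+FA replicate 2 or 3 (log2 -0.36 to -0.31, adjusted p = 0.0645 to 0.104). Map1lc3b did not pass without control replicate 1 or 3, any 1 MMA replicate, FA replicate 1 or 3, or any 1 MMA+FA replicate (log2 0.31 to 0.38, adjusted p = 0.0622 to 0.106).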

How the results depend on the processing

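The number of the 39 genes called changed with scaling, with the groups in the fit and with single libraries. After median-ratio scaling the count was 5 for MMA (12 as reported), 15 for MMA+FA (29), 4 for MMA+FA against MMA (9), 4 for MMA+FA against FA (14) and 12 for the F test (27). Psat1 turned from -0.11 to 0.016 with MMA+FA, and Tars1 from 0.00 to 0.12, adjusted p = 0.044. Without the filter the counts were 2 for FA (4), 4 against MMA and 9 against FA, and the same 3 counts came without the trend. Fitting only the groups compared gave 1 for FA, 3 against MMA and 0 against FA, where 23 of all genes were called in place of 1288. Over all genes FA against control gave 1517 calls, 928 without the filter and 604 in that fit, MMA+FA against FA gave 699 without the filter and 723 after median-ratio scaling, and the interaction gave 295, or 181 without the filter. Leaving out 1 library moved these all-gene counts to between 214 and 2571 for FA, 357 and 2010 for MMA+FA against FA, and 85 and 496 for the interaction, so the shares of all genes called in these comparisons also rest on single libraries. Leaving out 1 library gave 3 to 15 calls for MMA, 0 to 8 for FA, 21 to 30 for MMA+FA, 1 to 12 against MMA, 3 to 16 against FA, 18 to 29 in the F test, and 0 throughout for the interaction. With a minimum of 5 TPM, Gdf15 and Fgf21 drop out and 37 of the genes are tested. Further calls were kept in few of the 20 alternative runs, among them Nupr1 with FA in 8 and Psat1 with MMA+FA in 9. For MMA+FA against FA, Eif4ebp1 was kept in 4 and Phgdh in 6. In the fit with a replicate block the counts were 11 for MMA, 2 for FA, 27 for MMA+FA, 7 against MMA, 10 against FA, 0 for the interaction and 26 for the F test. Deviations of same-numbered libraries had correlations of -0.124 to 0.107 (1 of 18 pairs over 0.1), those of other pairs -0.203 to 0.141, so the numbers were not taken to pair samples. Depth is unknown, so counting error cannot be given.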
